A study of Mus musculus with 22 samples.

Results

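The major cluster of replication-dependent histone genes in the mouse, Hist1, was followed through GATA1-driven erythroid differentiation by its peaks of 2 promoter-associated histone marks and of CTCF. Its members were all protein-coding genes of the GENCODE M21 annotation whose symbol begins with Hist1h. There were 54 of them among 21853 protein-coding genes, all on chromosome 13 of GRCm38 (the build that UCSC calls mm10). By the letters after Hist1h, 6 encode the linker histone H1, 13 H2A, 15 H2B, 9 H3 and 11 H4. No measurement was used to choose them. The cells were G1E-ER4, an erythroid progenitor line made from Gata1-null mouse embryonic stem cells, which at every time point also carried a constitutively expressed fusion of GATA1 with the ligand-binding domain of the estrogen receptor. Untreated cells (0 h) were compared with cells exposed to β-estradiol, which activates the fusion protein, for 2, 6, 12 and 24 h, all of them in medium with SCF and EPO. H3K4me3 and H3K27ac had 2 replicate peak lists at each of the 5 time points, and CTCF had 1 list at 0 h and 1 at 24 h. The study describes the replicates as independent experiments, and the labels do not say what separates them.

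Core histones package DNA into nucleosomes, and linker histone H1 binds the DNA between them. Replication-dependent histone genes are short, mostly intronless, and transcribed in S phase, when new chromatin needs a large supply of all types. NPAT, acting downstream of cyclin E and CDK2, coordinates their transcription in nuclear histone locus bodies, and their messages end in a stem-loop bound by SLBP rather than in a poly(A) tail. H3K4me3 marks the start of active and poised genes, H3K27ac marks active promoters and enhancers, and CTCF is a zinc-finger protein that bounds chromatin loops. Terminal erythroid maturation ends in exit from the cell cycle.

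The members lay in 4 blocks. From the centromeric side these held 18 genes (starts between 21716143 and 21833771), 5 genes (22035568 to 22043214), 29 genes (23531050 to 23763666), and the testis pair Hist1h2ba and Hist1h2aa (23934156 and 23934462). H2A and H2B genes formed 11 divergent pairs whose starts were 176 to 306 bp apart. The window of 2 kb either side of the start overlapped that of another member at 48 of the 54 genes, so neighbouring members often read the same peak and were not independent.

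The promoters themselves fell into classes by type. RefSeq promoter sequences (250 bases before to 50 after the start, GRCm38.p6) were matched to 50 of the 54 members through older symbols, and short motifs were counted on both strands. CCAAT, the core bound by NF-Y, was in 84% of members and 38.2% of all promoters. It was in all 5 H1, 13 H2A, 14 H2B and 7 H3 promoters matched but in 3 of 11 H4 promoters. GGTCCG, the core of the H4 site II element bound by HINFP, was in 10 of 11 H4 promoters and in 24% of members, against 10.5% of 21263 protein-coding promoters. The octamer ATTTGCAT occurred in 5 H2A and 5 H2B promoters and in no other type, 20% of members against 1.66% of all promoters. The promoters of a divergent pair overlap, so an octamer, CCAAT or other motif between its starts can be counted for both genes. The shares of members therefore count some elements more than once. AAACACA, the H1 box, was in 4 of 5 H1 promoters (16% of members, 6.15% of all), TATAA in 80% of members (21.9% of all), and the GATA-type AGATAA in 20% (9.65% of all). These matches are letters in a window and were not tested as binding sites.

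Promoter sequences of members with contrasting peaks are given 5′ to 3′. The H4 genes Hist1h4i (chr13:22041363-22041612, minus strand), marked in every list, and Hist1h4b (chr13:23756687-23756936, plus strand), without H3K4me3 in any, are shown over the 250 bases before their starts, with TATAA and the site II core on either strand in capitals. The GGTCCG counted for Hist1h4b lay after its start and is not shown.
Hist1h4i: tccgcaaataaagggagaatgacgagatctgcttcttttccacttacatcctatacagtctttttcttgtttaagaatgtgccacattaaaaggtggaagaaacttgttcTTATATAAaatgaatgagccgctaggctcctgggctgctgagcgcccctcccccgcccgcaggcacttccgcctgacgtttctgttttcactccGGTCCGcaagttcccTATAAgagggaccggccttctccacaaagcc
Hist1h4b: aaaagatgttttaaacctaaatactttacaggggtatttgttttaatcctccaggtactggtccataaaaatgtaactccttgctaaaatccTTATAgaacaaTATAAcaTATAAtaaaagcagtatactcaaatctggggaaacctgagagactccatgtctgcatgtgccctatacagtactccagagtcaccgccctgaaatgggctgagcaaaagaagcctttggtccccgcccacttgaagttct
The linker genes Hist1h1c (chr13:23738607-23738806) and the testis form Hist1h1t (chr13:23695611-23695810), both on the plus strand, are shown over 200 bases before the start, with the H1 box, the CCAAT box and the TATA letters in capitals.
Hist1h1c: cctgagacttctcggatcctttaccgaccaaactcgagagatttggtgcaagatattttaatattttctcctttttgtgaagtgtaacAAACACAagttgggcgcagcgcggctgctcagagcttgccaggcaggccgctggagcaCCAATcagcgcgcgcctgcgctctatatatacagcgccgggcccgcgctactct
Hist1h1t: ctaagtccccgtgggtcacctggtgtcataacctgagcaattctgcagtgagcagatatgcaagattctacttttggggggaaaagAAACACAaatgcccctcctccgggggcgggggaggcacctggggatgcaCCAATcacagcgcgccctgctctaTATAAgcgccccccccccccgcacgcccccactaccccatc
Of the divergent pairs, 3 are shown as the whole stretch between both RefSeq starts on the plus strand, with the TATA letters, the CCAAT box and the octamer in capitals: Hist1h2bf/Hist1h2ad (chr13:23574208-23574380), Hist1h2ak/Hist1h2bn (chr13:21753913-21754075) and the testis pair (chr13:23934157-23934436).
Hist1h2bf/Hist1h2ad: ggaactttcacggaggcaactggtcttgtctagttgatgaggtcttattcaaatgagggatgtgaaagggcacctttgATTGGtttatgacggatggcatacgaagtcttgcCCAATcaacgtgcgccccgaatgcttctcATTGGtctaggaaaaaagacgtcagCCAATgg
Hist1h2ak/Hist1h2bn: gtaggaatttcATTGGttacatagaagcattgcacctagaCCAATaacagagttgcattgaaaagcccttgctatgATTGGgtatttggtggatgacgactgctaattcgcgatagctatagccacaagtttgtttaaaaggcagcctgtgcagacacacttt
Hist1h2ba/Hist1h2aa: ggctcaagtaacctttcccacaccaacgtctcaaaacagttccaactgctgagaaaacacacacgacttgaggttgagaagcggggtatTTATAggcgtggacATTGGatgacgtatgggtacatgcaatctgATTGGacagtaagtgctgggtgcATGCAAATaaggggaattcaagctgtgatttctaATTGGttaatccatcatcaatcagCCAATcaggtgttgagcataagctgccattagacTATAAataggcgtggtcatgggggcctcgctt
Of these, Hist1h2bf and Hist1h2ad were filled with H3K4me3 in all 10 lists, Hist1h2ak and Hist1h2bn had it in 2, and the testis pair carried a short peak on 1 side.

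Each list held peak positions and a score per peak, with no reads, so sequencing depth is unknown. The H3K4me3 lists had 12925 to 14452 peaks, the H3K27ac lists 17247 to 18333, and the CTCF lists 33193 at 0 h and 41473 at 24 h. No list of a histone mark held a peak longer than 9200 bp. Of 9 erythroid progenitor genes checked as a control of the cell type, 4 (Lmo2, Klf1, Epor, Lyl1) had promoter H3K4me3 in all 10 lists, 4 in 8 or 9 lists, and Tal1 in none. H3K27ac was at Klf1 in 10 lists, at Lmo2 in 9 and at Epor in 2, and was listed at none of the other 6, Tal1 and Gfi1b included. None of the 9 markers of other cell types (Cd3e, Alb, Neurod1 and the like) had either mark in any list.

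H3K4me3 peaks lay in the windows of nearly all members at every time point. Of the 54 members, 48 (88.9%) had a peak in all 10 lists, against 43.6% of all protein-coding genes, 5 had one in some lists and 1 in none. The number with a peak in the replicate lists, in order of time, was 51 and 51, 51 and 49, 50 and 51, 50 and 53, then 51 and 50. All 6 H1 genes, 12 of 13 H2A, 14 of 15 H2B, 8 of 9 H3 and 8 of 11 H4 genes were marked in all 10 lists. A peak anywhere in the window counted. Over all pairs of a gene with a list, the start itself lay in a peak in 66.7% for H1 genes. For the other types it was 85.5 to 94%. The starts of the linker genes Hist1h1d and Hist1h1t lay in no H3K4me3 peak of any list. For Hist1h1d this rests on the GENCODE transcript chosen (23553262 to 23560686), to which no RefSeq promoter was matched. A merged region with a peak in all 10 lists (chr13:23554118-23557591) lay inside that transcript. Merged over lists, these peaks formed 26 regions, of which 25 had a peak in every list. The peaks were long but not strong for their lists. The median cover of the marked windows was 3105 to 3575 bp per list, against 2481 to 2641 bp over all marked promoters, whereas the median rank of the best peak by score was at the 28.5th to 35.5th percentile of its list, against the 65.6th to 69.1st for all.

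**Figure D1:**
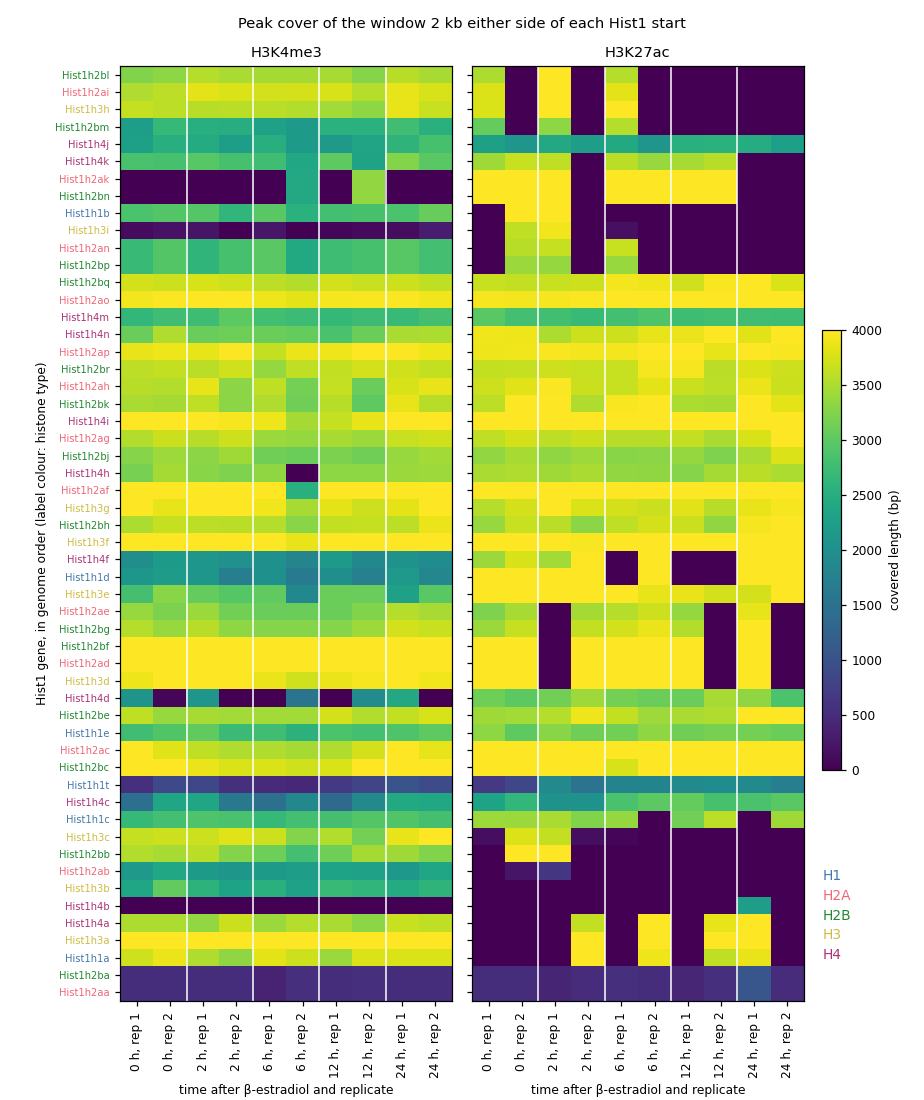
Covered length in bp (colour) of the window 2 kb either side of the start of each of the 54 Hist1 genes (rows, in genome order) in the 10 H3K4me3 lists and the 10 H3K27ac lists (columns, by time and replicate). H3K4me3 is present in all 10 lists at 48 genes, whereas H3K27ac switches between full cover and none at stretches of neighbouring genes, often between replicates of the same time point.

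Among linker genes, Hist1h1e ranked highest in H3K4me3, at a median percentile of 48.3, and Hist1h1a lowest at 24.1. Hist1h1e shares its peak with Hist1h2be, the highest of the H2B genes. That peak scored 892 and 918 before treatment, 875, 865, 887 and 915 in the lists of 2 and 6 h, 640 and 730 after 12 h, then 772 and 736 after 24 h. Its 4 later scores lay below all 6 earlier ones, but its ranks within the lists did not separate in this way. It stood at the 45.6th percentile of the second 6 h list. The lists of 12 h gave 42.3 and 45.9, those of 24 h 46.3 and 45.7, and the other earlier lists 50.3 to 54. Scores were not normalized between lists and this difference was not tested. Hist1h2ao (40.4), Hist1h3f (44.3) and Hist1h4j (42.6) were the highest of the H2A, H3 and H4 genes.

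The exceptions were 3 H4 genes, 1 H3 gene and a divergent H2A-H2B pair. Hist1h4b had no H3K4me3 peak in any list, and the nearest H3K4me3 region began 2537 bp from its start. Hist1h4d was covered, in the replicate lists in order of time, by 2069 and 48, 2082 and 0, 0 and 1545, 0 and 1937, then 2411 and 0 bp. Its replicates differed widely at each of the 5 time points. The merged region chr13:23581188-23587481, which holds its start, had a peak in every list, but in 5 lists only over its far part, of which at most 48 bp lay in the window. Hist1h4h was marked in 9 lists and missed in the second 6 h list, in which the 7381 to 7993 bp peak of the other lists was replaced by one of 3530 bp. Hist1h3i, an H3 gene, had only 55 to 327 bp of cover in 8 lists, the edge of the Hist1h1b peak. The lowest H2A and H2B genes, the divergent pair Hist1h2ak and Hist1h2bn, were covered only in the second 6 h list (2417 bp) and the second 12 h list (3357 bp). Hist1h3g was the lowest H3 gene by median percentile (16.8).

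No member changed its H3K4me3 cover by the test. In a limma fit on log2(covered bp + 200) over 9982 promoters, 0 of the 53 members tested passed an adjusted p of 0.05 at 24 h against 0 h, where 0.27% of all promoters did, and 0 passed the F test for any time point, where 0.301% did. At an unadjusted p under 0.05 there were 2 members at 24 h (3.77%, against 7.67% of all promoters) and 9 by the F test (17%, against 6.69%). Without the first 6 h list the F test called 2 members, Hist1h4h and Hist1h2af. The difference (log2, 24 h minus 0 h) had a median of 0.03 over members and -0.01 over all promoters, and 33 members were longer at 24 h (62.3%, against 43.3% of all promoters), 11 shorter and 9 equal. This direction depended on the scale. With cover divided by the median peak length of its list, 17 members were longer and 34 shorter, with medians of -0.03 over members and -0.07 over all promoters. The nearest to the threshold was Hist1h2ai, with 3523 and 3597 bp of cover before treatment against 3854 and 3751 bp after 24 h. Its log2 difference was 0.09 (SE 0.0268, limma adjusted p = 0.445). No member was gained or lost by presence in both lists of a time point. Of all 21853 promoters, marked or not, 0.0915% were gained and 0.247% lost. At 7 members the window was filled in all 4 lists compared, so an increase could not be seen there.

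H3K27ac was less complete and less reproducible. A peak was in the window of 27 of 54 members (50%) in all 10 lists, of 26 (48.1%) in some, and of 1, Hist1h3b, in none. Over all protein-coding genes 38.9% were marked in all lists and 6.05% in some, with 55% in none. Among genes with a peak in any list, those marked in some lists only were 49.1% of members and 13.4% of all genes. By type, 2 of 6 H1, 7 of 13 H2A, 8 of 15 H2B, 3 of 9 H3 and 7 of 11 H4 genes were marked throughout. The number of members with a peak in the replicate lists, in order of time, was 43 and 45, 44 and 39, 44 and 40, 36 and 34, then 38 and 30. All 4 lists of 12 and 24 h thus lay below all 6 earlier ones, a difference that was not tested. Over all promoters the number was 9189 and 9239 before treatment, against 9074 and 9124 after 24 h. The cluster's peaks formed 22 regions, of which 12 had a peak in every list. Those 12 regions together held 57.5 and 57 kb of peaks before treatment, against 65.5 and 61 kb after 24 h. The median cover of all marked promoters was 2605 and 2531 bp, then 2707 and 2623.5 bp. Among the members fitted by limma, 23 were longer at 24 h (44.2%, against 56.4% of all promoters) and 23 shorter. With cover divided by the median peak length of its list, 15 were longer and 37 shorter.

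**Figure D2:**
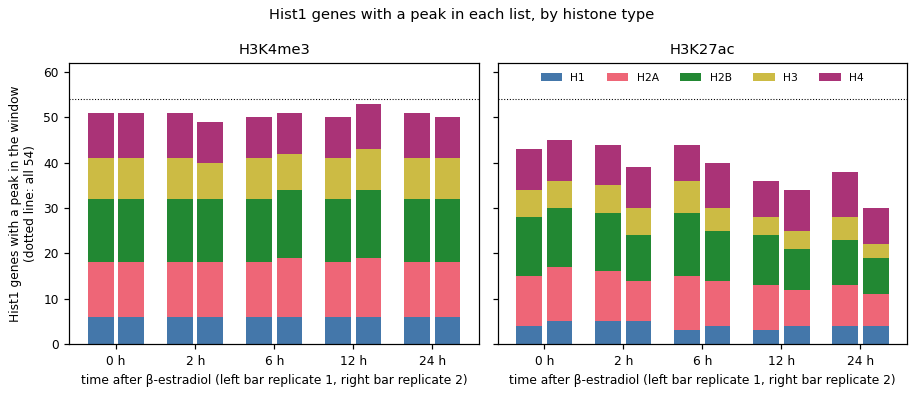
Number of Hist1 genes with a peak in the window (bar height, coloured by histone type) in each list of H3K4me3 and H3K27ac, with the replicates of a time point side by side and all 54 genes as a dotted line. H3K4me3 stays between 49 and 53, and H3K27ac lies at 39 to 45 in the first 3 time points, then at 30 to 38.

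The replicates disagreed at many of these genes. At a given time point 8 to 21 members had H3K27ac in 1 of the 2 lists only, which was 20.4 to 40.4% of the members with a peak, compared with 4.17 to 4.97% over all promoters. For H3K4me3 it was 0 to 5 members (at most 9.43%, against 1.57 to 1.98%). The disagreement ran through stretches that share a peak. Hist1h2bl, Hist1h2ai and Hist1h3h at the start of the first block carried peaks of 4794, 5695 and 5127 bp in the first list of 0, 2 and 6 h and none in any of the other 7 lists. The neighbouring H2B gene Hist1h2bm followed the same 3 lists. Hist1h2ae, Hist1h2bg, Hist1h2bf, Hist1h2ad and Hist1h3d shared 1 peak of 7780 to 8746 bp, which was in both lists at 0 and 6 h and in 1 of 2 at 2, 12 and 24 h. Hist1h4a, Hist1h3a and Hist1h1a had a peak in the second lists of 2, 6 and 12 h and in the first list of 24 h. Hist1h1b, another somatic linker gene, was filled (4001 bp) in the second 0 h list and the first 2 h list and empty in the other 8. The pair Hist1h2an and Hist1h2bp had a peak in those lists and the first 6 h list, and Hist1h2bb (4001 bp) and Hist1h2ab (220 and 630 bp) in the second 0 h and first 2 h lists alone. Hist1h1c was covered by 3156 to 3601 bp in 8 lists and by none in the second 6 h and first 24 h lists. Hist1h4b, unmarked by H3K4me3, had 2220 bp of H3K27ac in the first 24 h list alone, at the 2.77th percentile of that list.

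Presence at the first and last time point gave 4 members lost and 0 gained, and 1 gained or lost when the longer lists were cut by score to the size of the shortest. Over all 21853 promoters, marked or not, 0.659% were lost and 0.352% gained by the same rule. The H4 gene Hist1h4k and the pair Hist1h2ak and Hist1h2bn shared a peak that was 7972 and 7642 bp long before treatment, with scores of 51.9 and 81.2, and absent from both 24 h lists. It was in 7 of the 10 lists and absent from the second 2 h list too. In the limma fit the log2 difference was -4.39 for Hist1h2ak and Hist1h2bn (SE 1.24) and -4.23 for Hist1h4k (SE 1.21), with an adjusted p of 0.21 for each. These results depended on the 2 h lists, whose replicates differ there (4001 and 0 bp at Hist1h2ak and Hist1h2bn). Both genes were filled (4001 bp) in both lists of 0, 6 and 12 h and empty in both 24 h lists. Leaving out either 2 h list thus left them no spread within a time point, and Hist1h4k little. A limma call made that way is no support for a loss. Hist1h3c, the fourth, had 150 and 3791 bp before treatment and none at 24 h. When 1 of the 4 lists compared was left out, so that 1 list stood for its time point, 8 to 10 members were gained or lost.

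Peak length and score moved with this pattern. In the H3K27ac lists the median score of all peaks was 477 for lengths of 3000 to 4000 bp, 125 for 7000 to 8000 bp and 62.3 for 8500 to 9000 bp, with the lowest score listed being 50, and no peak reached 9000 bp. The peaks that came and went at Hist1h4k, Hist1h4f and Hist1h1d, and from Hist1h2ae to Hist1h3d, were 7334 to 8746 bp long and scored 51.9 to 140. Of the 10 regions absent from some lists 6 held a peak of 6 kb or more, against 4 of the 12 present in all. Among members whose longest peak was 6 kb or more, 9 of 27 were marked in all 10 lists, and over all promoters of that class 62.8% were. Among members with peaks under 4 kb it was 5 of 8, against 89.5% of all. The part of peak length in the absences was not tested, and the files do not show whether a missing peak was a loss of acetylation.

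**Figure D3:**
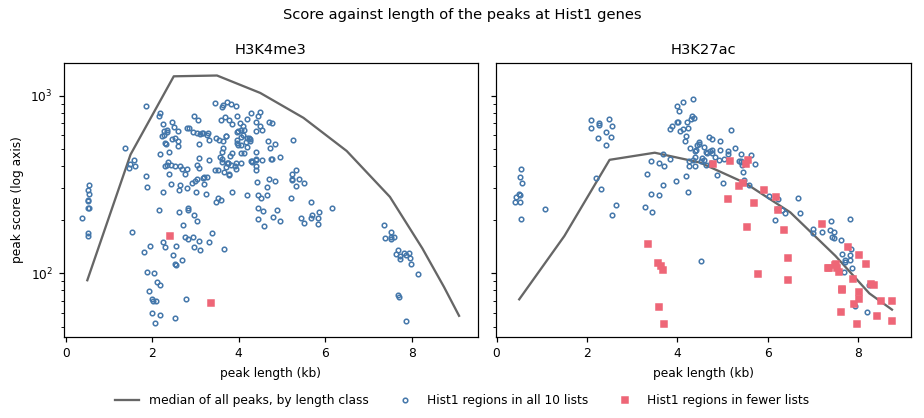
Score (log axis) against length in kb of every peak at a Hist1 region, for H3K4me3 and H3K27ac, with circles for regions that have a peak in all 10 lists, squares for regions in fewer lists, and a grey line for the median score of all peaks by length class. H3K27ac squares above 7 kb lie between 51.9 and 190, where the grey line also falls.

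The 1 member that passed the H3K27ac test was Hist1h1t, the linker histone of spermatocytes. Its window was covered by 662 and 845 bp before treatment, then, in order of time, by 1883 and 1529, 1799 and 1810, 1893 and 1939, and 1916 and 1715 bp. All 8 lists after β-estradiol lay above both lists at 0 h. The mean rose from 754 ± 129 bp (SD, n = 2) to 1815.5 ± 142 bp (SD, n = 2), a log2 difference of 1.08 (SE 0.131, 95% interval 0.77 to 1.40, limma adjusted p = 0.0145). The F test over time points gave an adjusted p of 0.0362, but this call was lost without any 1 of the 8 lists of 0, 6, 12 and 24 h (0.0585 to 0.133). It was 1 of 52 members tested, and 1.54% of 9583 promoters passed at 24 h, 0.877% with longer cover at 24 h and 1.36% by the F test.

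In the peak lists the change at Hist1h1t was one of the edge of a listed peak, and no separate peak was listed in its window. Without reads it cannot be told whether another peak had joined the listed one. Hist1h1t is on the plus strand, and the H4 gene Hist1h4c starts 2640 bp downstream and points back at it. A peak in all 10 lists (merged region chr13:23695876-23699619) lay over the Hist1h4c start. Its Hist1h1t-side edge was 1339 and 1156 bp after the Hist1h1t start at 0 h, beyond the end of the 911 bp transcript, and 62 to 472 bp after it in the 8 later lists, inside the transcript. It did not reach the start in any list. Hist1h4c, at the other end, had 2317 and 2650 bp of cover before treatment against 2857 and 2970 bp after 24 h (log2 difference 0.22, limma adjusted p = 0.266). At 2 h its cover was lower, at 2035 and 2036 bp. The far edge of the peak then lay 2674 and 2675 bp after the Hist1h1t start, against 3655 and 3805 bp at 0 h. Both edges thus lay nearer Hist1h1t at 2 h than at 0 h. The H3K4me3 peak there began 965 to 1546 bp after the Hist1h1t start, and Hist1h1t had 455 to 1036 bp of H3K4me3 cover with a log2 difference of 0.39 (limma adjusted p = 0.779). The H3K27ac call at 24 h was lost without the first 24 h list (adjusted p = 0.0726), and a window of 5 kb gave a log2 difference of 0.41 (adjusted p = 0.0987).

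**Figure D4:**
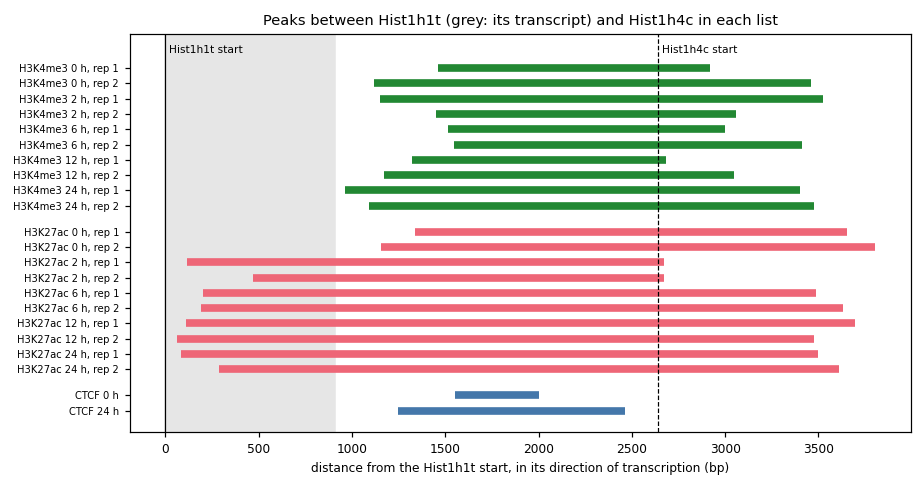
Extent of each peak between Hist1h1t and Hist1h4c, in bp from the Hist1h1t start along its direction of transcription, for the 10 H3K4me3 lists, the 10 H3K27ac lists and the 2 CTCF lists (grey band, Hist1h1t transcript; dashed line, Hist1h4c start). The left end of H3K27ac lies at 1339 and 1156 bp at 0 h and at 62 to 472 bp in the 8 later lists.

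The testis pair behaved differently from the somatic pairs. Hist1h2ba encodes the testis H2B and Hist1h2aa the testis H2A. Both marks had a peak in all 10 lists, with a median length of 524 bp for H3K4me3 and 521 bp for H3K27ac. It lay over the 384 bp Hist1h2ba transcript, covering it whole in 9 of 10 H3K4me3 lists and 8 of 10 H3K27ac lists. The peak ended at most 29 bp beyond the Hist1h2ba start in H3K4me3, and Hist1h2aa starts 306 bp away, so its own start was in no H3K4me3 peak. The median score was 245 for H3K4me3 and 272 for H3K27ac, with H3K27ac cover of 529 and 516 bp before treatment against 1076 and 511 bp after 24 h.

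A further set of members had windows of repeated sequence. Of all 75-base stretches in the window, 75 bases being the length of the sequencing kit, 1.96% were unique in the genome at Hist1h2bq, 5.2% at Hist1h2ao, 7.04% at Hist1h4m, 25.2% at Hist1h4n, 5.08% at Hist1h2ap and 1.84% at Hist1h2br. At these 6 genes 48.7 to 80.4% of stretches occurred exactly 2 times. The median over the 54 members was 87.7%. The study states that reads mapped to 1 place were kept. Hist1h2bq, Hist1h2ao and Hist1h4m, which share a peak, held the highest H3K27ac rank of their types, at a median percentile of 92.1, and scores of 707 to 963, and the other 3, which share another peak, stood at 73.2. All 6 were marked by both modifications in all 10 lists. The part of mapping in these levels was not tested, and values at these 6 genes are uncertain. Hist1h4b (96.2% unique) and Hist1h1t (100%) were not of this kind. The highest H3K27ac ranks elsewhere were those of Hist1h4j (85.4) and of Hist1h1e with Hist1h2be (81.2), and Hist1h3e led the H3 genes at 70.9.

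CTCF peaks were found at 17 members before treatment and at 37 after 24 h, with 1 list each and hence no test. They were 10 peaks in the first list and 19 in the second, and 8 of the 10 overlapped one at 24 h. In the same lists 31.5% and 68.5% of members had a CTCF peak, against 19.8% and 25.3% of all promoters. The later list was also longer, and with the same number of top-scoring peaks in both lists (33193) the count was 17 members at each time point. Most peaks at the cluster were weak, with median scores of 86.2 and 69.7 in the earlier and later list, against 120 and 150 over the whole lists. The strongest was at Hist1h4j, 696 bp from its start in the earlier list, with scores of 199 and 533 (76.6th and 96.3rd percentile). The peak between Hist1h1t and Hist1h4c scored 196 and 279 (75.9th and 74.1st percentile), and that at Hist1h3e 91.3 and 203 (35.5th and 61.7th). That beside Hist1h2ag and Hist1h2bj scored 172 and 177 (68.7th and 56.4th). Higher scores in the later list were thus not always higher ranks. Peaks only in the 24 h list scored 51.8 to 111, for example 111 at Hist1h2an and Hist1h2bp and 106 at Hist1h4n, Hist1h2ap and Hist1h2br. The 0 h list alone held a peak at Hist1h2ab and Hist1h3b (66.9) and a second one beside Hist1h4c (51.6).

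**Figure D5:**
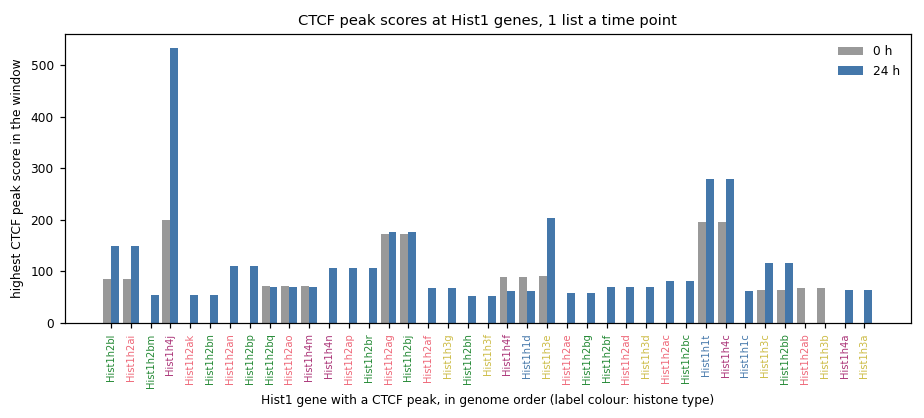
Highest CTCF peak score in the window of each Hist1 gene that has a CTCF peak, at 0 h (grey) and 24 h (blue), in genome order, from 1 list a time point. Hist1h4j stands highest, at 199 and 533, and peaks found only at 24 h score between 51.8 and 111.

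A core CTCF motif, searched as AGNNGGCGC or AGNNGGCAG on both strands, was in the central 200 bases of 3 of the 10 member peaks before treatment (26.7% of all peaks of that list) and of 9 of the 19 after 24 h (24.9%). Most peaks of both lists had no match to these letters, so a peak without a match may still hold a CTCF site. The central 200 bases on the plus strand are shown for the 24 h peaks nearest Hist1h2bl and Hist1h4j. The first (score 149, chr13:21714822-21715021) has a match, in capitals. The second (chr13:21734262-21734461), the strongest peak of the cluster, has no match to the letters searched. Read on the other strand, its stretch gtgccctct departs from those letters only at the end. The missing match thus does not show that this peak lacks a CTCF site.
Hist1h2bl CTCF peak: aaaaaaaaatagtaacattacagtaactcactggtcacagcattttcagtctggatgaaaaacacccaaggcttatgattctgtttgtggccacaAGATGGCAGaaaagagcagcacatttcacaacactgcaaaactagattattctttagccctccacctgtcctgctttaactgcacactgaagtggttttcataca
Hist1h4j CTCF peak: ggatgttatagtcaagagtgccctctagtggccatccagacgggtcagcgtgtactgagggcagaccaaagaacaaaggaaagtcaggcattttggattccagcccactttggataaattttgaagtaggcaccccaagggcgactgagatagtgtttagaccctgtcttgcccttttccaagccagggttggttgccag

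The 13 replication-dependent genes of the other clusters (Hist2h, Hist3h, Hist4h) all had H3K4me3 in all 10 lists, 6 had H3K27ac in all 10, and 7, such as Hist2h2aa1 and Hist2h3c1 with 6 lists each, had it in some. Of 13 replication-independent histone genes 8, among them H2afz, H3f3a and Cenpa, had both marks throughout. The other 5 had neither in any list, including H1f0, the linker variant of differentiating cells. Of 24 genes for histone gene transcription and mRNA processing, 23 had H3K4me3 and 21 H3K27ac in all lists, Npat, Slbp and Casp8ap2 included, and of 18 histone chaperones 17 and 16. None of the genes tested in these lists passed the limma test at 24 h for either mark (8 to 23 genes tested a list). Of 49 other protein-coding genes between the outermost Hist1 starts, 5 had H3K4me3 in all lists and 43 in none. The 5 were Zfp184, Zfp322a, Abt1, Btn1a1 and Hfe, and most of the unmarked ones were vomeronasal receptor genes.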

How the data were processed

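ChIP-seq peak lists of H3K4me3 and H3K27ac (10 each) and CTCF (2) from G1E-ER4 cells were analysed. Per the study's methods, the authors aligned reads with Bowtie2 to mm10, and ran MACS on the reads that mapped to 1 place. The deposited value of a peak is a score, which is not known to be normalized between lists. The control library, the MACS version and the threshold are not given in the sources used here, and the labels also mention a human build. Every peak ended within its GRCm38 chromosome.

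Each protein-coding gene of GENCODE M21 had 1 start, taken from its top APPRIS transcript and, among equals, the longest. Covered bp in the window of 2 kb either side were fitted with limma 3.58.1 (R 4.3.3, trended variance, a mean per time point) as log2(covered bp + 200), for promoters with a peak in at least 2 of 10 lists. Adjustment was by Benjamini-Hochberg over all of these promoters. A peak of 1 bp or more in the window counted as present. The fit was tested on simulated data. A percentile is the rank of a peak's score within its own list.

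Members were taken by symbol alone, whereas the lists of other genes were chosen with earlier results of these data known. Named were members called, those with a peak in under 5 lists of a mark, the highest and lowest of each type by median percentile, those with CTCF peaks (of each of these kinds, 12 at most), the testis genes, and those gained or lost. Other members named as sharing a peak with these, or as exceptions to presence in all lists, were chosen after their values were seen.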

Additional observations from a re-analysis of the deposited data

How the results depend on the processing

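Over 23 alternatives for H3K27ac at Hist1h1t the difference stayed positive (log2 0.41 to 2.34) and 18 passed an adjusted p of 0.05 by limma. It missed the threshold without the first 24 h list (0.0726), with a window of 5 kb (0.0987), with whole peak lengths (0.102), with only the 0 and 24 h lists (0.138), and with peaks at or above the median score (0.488). Its F test also missed the threshold with a window of 5 kb (0.0982), whole peak lengths (0.101) and peaks at or above the median score (0.535). Hist1h4c turned to -0.06 with a window of 1 kb, where its F test over time points passed (limma adjusted p = 0.0054). With the window of 2 kb and all lists that F test did not call it.

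H3K4me3 calls over all promoters were 27 at 24 h and 30 at any time. A window of 5 kb gave 77 and 73, peaks at or above the median score 82 and 124, whole peak lengths 69 and 56, and only the 0 and 24 h lists 70 at 24 h. Hist1 calls were 0 as reported, 2 at the median score (Hist1h2be and Hist1h1e, the only members tested there, both shorter) and 1 with equal list sizes (Hist1h4f, longer). H3K27ac calls were 148 and 130, with 79 at 24 h for a window of 1 kb, 250 for only the 0 and 24 h lists, and 83 at any time without long peaks. Hist1 calls were 0 with a window of 5 kb, 0 at the median score, 0 with whole lengths, and 4 with only the 0 and 24 h lists (Hist1h4k, Hist1h2ak, Hist1h2bn and Hist1h2be). In those lists Hist1h2ak and Hist1h2bn had no spread within a time point. Hist1h2be had almost none, with 3437 and 3445 bp at 0 h and a filled window (4001 bp) in both 24 h lists. At the median score 0 members had H3K4me3 and 12 had H3K27ac in all 10 lists. Members gained or lost were then 2 for H3K4me3 and 0 for H3K27ac. With equal list sizes they were 1 for H3K4me3 and 1 for H3K27ac. Without promoters touched by long peaks (6 kb or more), an alternative chosen after seeing the data, the H3K27ac number was 0 by construction, since that filter removes all 4 lost members. CTCF was at 5 and 8 members at the median score, and at 17 at 24 h with equal list sizes. The cause of these moves was not tested.

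With 1 list left out, H3K4me3 calls ranged from 24 to 46 at 24 h and 27 to 53 at any time, and H3K27ac calls from 147 to 224 and 146 to 211. Hist1 H3K27ac calls ranged from 0 (without the first 24 h list) to 5 (without either 2 h list, Hist1h4k, Hist1h2ak, Hist1h2bn, Hist1h2be and Hist1h1t). The calls of Hist1h4k, Hist1h2ak and Hist1h2bn without a 2 h list rest on values with little or no spread within a time point. At Hist1h2be the window was filled (4001 bp) in both 24 h lists, so its cover had no spread there. Members gained or lost ranged from 0 to 1 for H3K4me3 and from 4 to 10 for H3K27ac.

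Over all promoters fitted, same-numbered replicates did not deviate together (r of -0.10 to 0.14 for H3K4me3 and -0.066 to 0.075 for H3K27ac). An r over all promoters does not speak for single stretches, and some Hist1 stretches followed the replicate number at several time points while others did not. Whether same-numbered lists share a batch or culture was not tested, and the labels do not say. With the replicate number as a block, calls were 22 and 24 for H3K4me3, with 0 at Hist1, and 120 and 88 for H3K27ac, with 1 and 0 at Hist1 (Hist1h1t, log2 1.08, limma adjusted p = 0.0445 at 24 h and 0.11 by the F test, so that the block ends the second call).

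Peak lists hold no reads, so depth is unknown and signal below the calling threshold is not seen.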
